A study of Mus musculus with 12 samples.

Results

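Toll-like receptors are transmembrane sensors of microbial molecules and of molecules released by injured cells. The members described here were selected by gene symbol: the rows of the deposited count table named Tlr1, Tlr2, Tlr3, Tlr4, Tlr5, Tlr6, Tlr7, Tlr8, Tlr9 and Tlr13. These are 10 genes of 56748 in the table, and all 10 were among the 15742 genes with enough reads to be tested. Left ventricles of 12 wild-type C57BL/6J mice were collected 14 days after surgery, and polyadenylated RNA of each was sequenced. The 4 mice of the sham group had received the AAV9 control vector (AAV9-Ctrl) and sham surgery. A second group of 4 had received AAV9-Ctrl and myocardial infarction by ligation of the left anterior descending coronary artery. The third group of 4 had received AAV9-Irx3, a vector that carries the homeobox transcription factor gene Irx3, and the same infarction. All mice thus carried an AAV9 vector, injected into the tail vein, and no group combined AAV9-Irx3 with sham surgery. Neither the promoter that drives Irx3 in the vector nor the age of the mice is stated in the sources used here.

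Toll-like receptors share an ectodomain of leucine-rich repeats that binds the ligand and a cytoplasmic TIR domain that recruits adaptors. Most signal through the adaptor Myd88 to the Irak kinases and NF-kB, whereas Tlr3 signals through Ticam1 (TRIF), and Tlr4 uses both adaptors. Tlr1, Tlr2, Tlr4, Tlr5 and Tlr6 act at the cell surface, while Tlr3, Tlr7, Tlr8, Tlr9 and Tlr13 sense nucleic acids in endosomes, where Unc93b1 delivers them. Macrophages express most of the family, and Tlr4 is also present on cardiac muscle cells and endothelium.

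Total counts per library were 15966982 to 18441830 in the sham group, 16081360 to 18738571 after infarction with AAV9-Ctrl and 13352604 to 19236721 after infarction with AAV9-Irx3. Irx3 itself lay at 20.5 to 25.9 CPM (read counts scaled to library size, the unit of all levels here), 16.8 to 30.5 CPM and 285 to 513 CPM in the same order. Mitochondrially encoded transcripts took 4.50% to 8.22%, 0.926% to 5.64% and 10.4% to 19.0% of the reads. The labels name the cell type as cardiomyocytes. The 6 cardiomyocyte markers summed to 78709 to 92653 CPM in sham hearts, and the 14 macrophage and monocyte markers (422 to 523 CPM), the 5 fibroblast markers (534 to 648 CPM) and the 6 endothelial markers (895 to 1044 CPM) were also present, so the material was read as whole ventricle. In such bulk RNA, fewer cells of a type and less RNA per cell cannot be told apart.

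The stretches before the transcription starts of the members are shown because most members rose together after infarction. RefSeq (GRCm38.p6) gave 10 promoter entries for 8 of the 10 members, and none for Tlr4 and Tlr7. The 250 bases before each start were searched on both strands for the PU.1 core GAGGAAG, a spacing found in interferon-response elements (GAAA, any 2 bases, GAAA) and an NF-kB form (GGG, any 2 bases, TTTCC). Of 32851 RefSeq promoters of the same length, 10.6%, 2.98% and 1.41% held them, in that order. The 5 stretches with a match are printed 5′ to 3′ along the gene's strand, with the matched bases in capitals. They lie at chr5:64933559-64933808 (minus strand, Tlr1), chr5:64959167-64959416 (minus strand, Tlr6), chr8:45410381-45410630 (minus strand, Tlr3), chr9:106222348-106222597 (plus strand, Tlr9) and chrX:106143025-106143274 (plus strand, Tlr13).
Tlr1: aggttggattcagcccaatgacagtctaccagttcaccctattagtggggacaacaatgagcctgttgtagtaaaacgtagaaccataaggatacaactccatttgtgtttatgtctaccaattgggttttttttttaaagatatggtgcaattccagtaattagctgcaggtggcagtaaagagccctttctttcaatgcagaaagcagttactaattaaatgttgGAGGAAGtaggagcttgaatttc
Tlr6: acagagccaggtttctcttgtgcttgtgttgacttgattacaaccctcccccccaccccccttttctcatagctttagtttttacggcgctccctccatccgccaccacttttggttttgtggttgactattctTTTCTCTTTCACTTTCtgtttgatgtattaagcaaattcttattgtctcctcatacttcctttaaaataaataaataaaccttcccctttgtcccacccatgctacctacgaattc
Tlr3: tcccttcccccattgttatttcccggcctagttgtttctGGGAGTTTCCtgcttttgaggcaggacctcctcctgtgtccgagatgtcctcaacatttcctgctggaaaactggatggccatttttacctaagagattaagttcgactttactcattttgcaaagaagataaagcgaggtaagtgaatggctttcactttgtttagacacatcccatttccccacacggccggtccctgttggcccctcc
Tlr9: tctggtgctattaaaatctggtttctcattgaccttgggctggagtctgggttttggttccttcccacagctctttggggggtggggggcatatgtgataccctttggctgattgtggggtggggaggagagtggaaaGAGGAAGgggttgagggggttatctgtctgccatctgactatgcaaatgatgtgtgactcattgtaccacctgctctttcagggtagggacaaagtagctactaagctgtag
Tlr13: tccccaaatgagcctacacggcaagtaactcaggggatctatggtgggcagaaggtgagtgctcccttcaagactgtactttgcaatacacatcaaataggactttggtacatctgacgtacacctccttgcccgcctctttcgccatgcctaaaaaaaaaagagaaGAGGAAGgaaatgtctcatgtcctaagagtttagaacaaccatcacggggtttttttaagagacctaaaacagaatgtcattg
Tlr1, Tlr9 and Tlr13 each held GAGGAAG on the gene's own strand, with the match 23, 112 and 83 bases before the start. Tlr6 held the interferon-response spacing on the opposite strand in 2 overlapping copies, so the capitals there read as the complement. Tlr3 held the NF-kB form, which began 211 bases before the start. Tlr1 and Tlr6 each had another entry, and neither of those held a match, nor did the entries of Tlr2, Tlr5 and Tlr8. The matches found describe letters and show no binding.

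Infarction was compared with sham surgery under the control vector, to ask which receptors change in the infarcted ventricle. Of the 10 members, 9 rose and 0 fell, and Tlr4 did not pass the test. Tlr1 and Tlr6 had few reads in sham hearts and entered the test through their reads in infarcted hearts. A rise of Tlr1 and Tlr6 was therefore favoured by the filter, also in the counts and medians given here. Among all genes tested 26.3% were called higher and 22.4% lower. The median log2 fold change of the members was 2.38, against 0.01 over all genes tested. The normalised read counts of sham and infarcted hearts did not overlap for 9 members, all of them higher after infarction, a pattern that 24.5% of all genes tested showed. Both classes took part, with 4 of 5 surface receptors and 5 of 5 endosomal receptors called higher and medians of 2.35 and 2.41.

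Tlr1, Tlr2 and Tlr6 form the family that recognises lipopeptides, with Tlr2 as the shared partner of Tlr1 or Tlr6. Tlr1 was nearly absent from sham hearts, at 0.0702, 0.251, 0.0683 and 0.0695 CPM, which rested on 1, 4, 1 and 1 counts. After infarction it reached 3.14, 4.27, 2.22 and 8.42 CPM, and every infarcted heart was above every sham heart. Its log2 fold change was 5.18 (SE 0.67, edgeR adjusted p = 8.23e-05). The filter favoured a rise of Tlr1, because only its reads in infarcted hearts brought it into the test. With 7 counts over the sham group against 333, the ratio of summed counts scaled to library size was 38.7, with a 95% counting interval of 18.6 to 97.0. This interval pools the hearts of each group and leaves out the spread between mice. Tlr2, the common chain, rose from 2.74, 2.64, 4.37 and 3.48 CPM to 14.3, 18.7, 26.4 and 29.3 CPM. The lowest infarcted heart was thus more than 3-fold above the highest sham heart (log2 fold change 2.74, SE 0.31, edgeR adjusted p = 3.73e-05). Tlr6 was low in sham hearts, at 0.351, 0.565, 0.683 and 0.348 CPM, and rose to 2.21, 2.01, 2.11 and 3.72 CPM (log2 fold change 2.35, SE 0.40, edgeR adjusted p = 4.80e-04). Tlr1 and Tlr6 are related neighbours on chromosome 5, and how reads that match both were counted is not given in the sources used here.

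Tlr4, the receptor for lipopolysaccharide, was the member that did not pass the test after infarction. It lay at 13.6, 13.7, 13.3 and 16.9 CPM in sham hearts and at 14.3, 25.8, 18.6 and 13.4 CPM after infarction. The groups overlapped, with only replicates 2 and 3 of the infarcted group above all sham hearts. The log2 fold change was 0.33 (SE 0.19, edgeR adjusted p = 0.173). With counts corrected for the GC content of transcripts 10 of 10 members were called higher, against 29.4% of all genes tested (22.9% lower), and Tlr4 stood at 0.41 (SE 0.12, edgeR adjusted p = 0.0149). Tlr5, the receptor for flagellin, moved from 2.67, 3.27, 1.30 and 3.13 CPM to 3.60, 3.29, 4.21 and 9.35 CPM. The highest sham heart (3.27 CPM) nearly met the lowest infarcted heart (3.29 CPM), and replicate 4 of the infarcted group stood far above the other 3. Tlr5 passed the test (log2 fold change 0.98, SE 0.37, edgeR adjusted p = 0.0411), but without that library the log2 fold change was 0.45 with an adjusted p of 0.247, and it lost the call in 13 alternatives in all.

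The 5 endosomal receptors all rose. Tlr9, the receptor for unmethylated CpG DNA, moved most among them, from 1.90, 1.88, 1.77 and 2.36 CPM to 15.7, 15.2, 13.9 and 33.7 CPM (log2 fold change 3.31, SE 0.48, edgeR adjusted p = 1.60e-04). Tlr13, which in mice recognises bacterial ribosomal RNA, rose from 2.11, 1.95, 0.887 and 1.25 CPM to 7.56, 11.8, 9.22 and 18.6 CPM (log2 fold change 2.92, SE 0.47, edgeR adjusted p = 3.17e-04). In both, replicate 4 was the highest of the infarcted hearts and all sham hearts lay below the infarcted hearts. Tlr7, a sensor of single-stranded RNA, rose from 2.25, 1.26, 0.819 and 1.46 CPM to 5.25, 11.5, 5.58 and 8.42 CPM (log2 fold change 2.41, SE 0.45, edgeR adjusted p = 7.81e-04). Tlr8, its close relative, rose from 1.61, 2.95, 2.53 and 3.13 CPM to 6.89, 9.82, 8.82 and 11.1 CPM (log2 fold change 1.84, SE 0.33, edgeR adjusted p = 5.97e-04). Neither gene's groups overlapped. Tlr3, the sensor of double-stranded RNA, changed least of the 5, from 4.42, 4.02, 3.62 and 4.38 CPM to 7.30, 12.4, 7.17 and 6.82 CPM (log2 fold change 1.03, SE 0.23, edgeR adjusted p = 0.00258). Here replicate 2 was the high library and replicate 4 the lowest of the infarcted group.

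**Figure D1:**
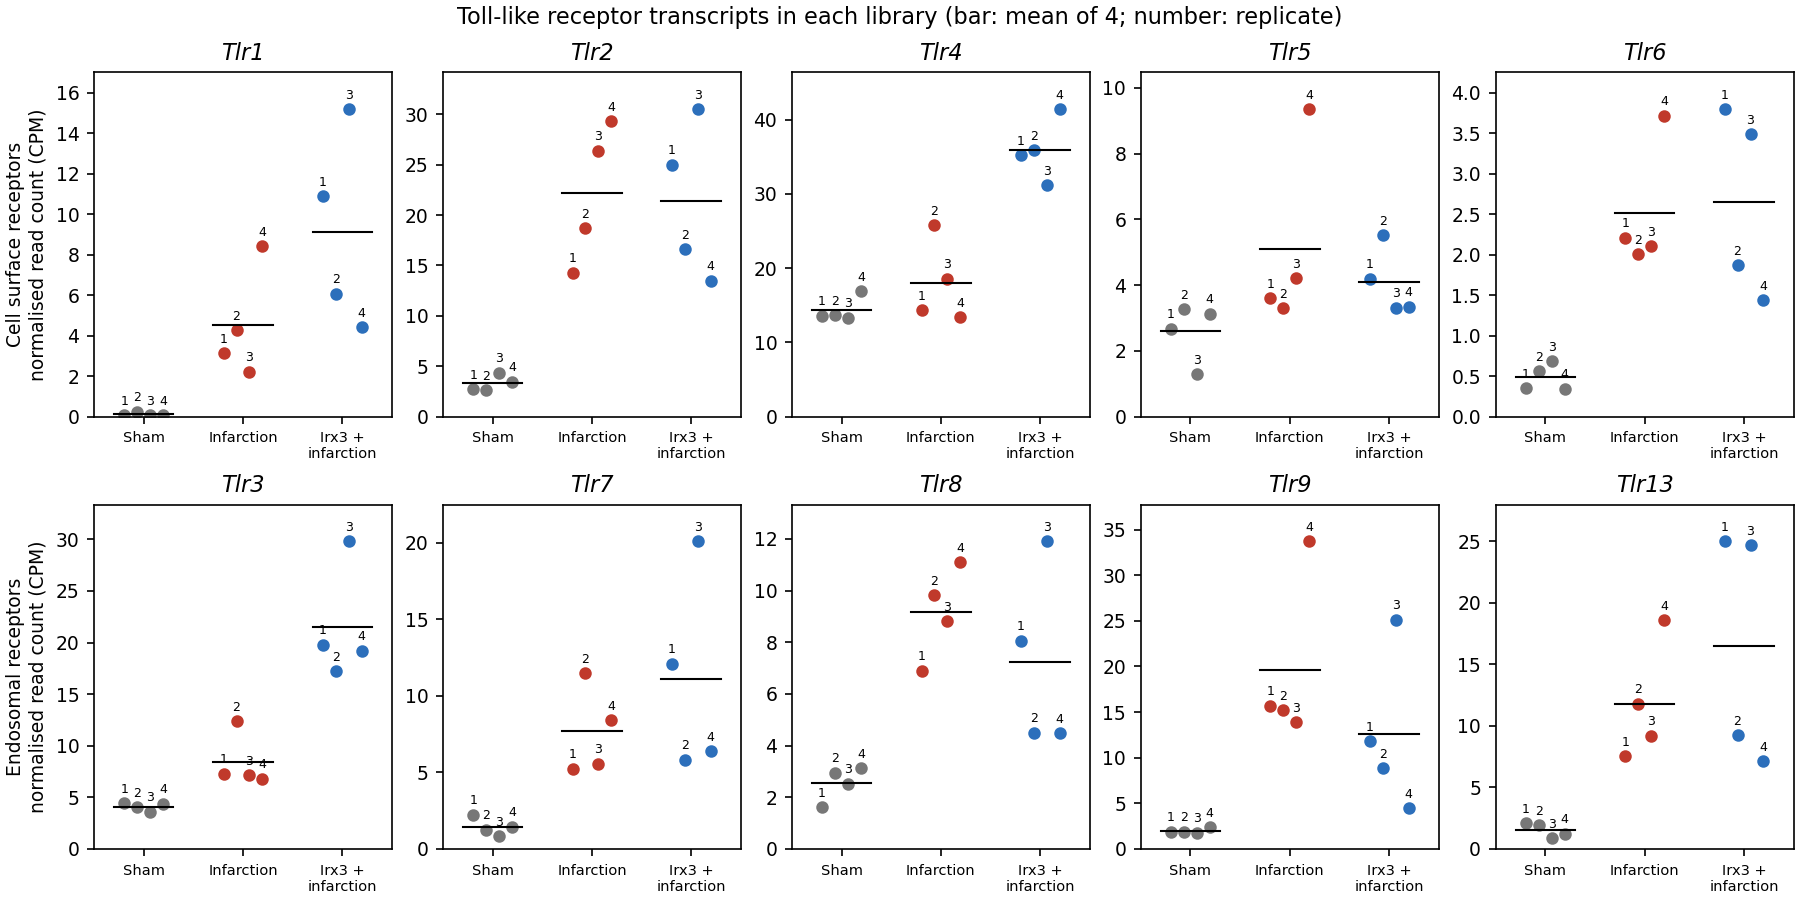
Normalised read count (CPM, linear axes that start at 0) of each receptor in each library, with surface receptors in the upper row and endosomal receptors in the lower row; points are libraries numbered by replicate and bars are means of 4. Infarcted hearts lay above sham hearts for every member but Tlr4, which stood apart only with AAV9-Irx3 (31.2 to 41.4 CPM).

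Markers of immune cells and fibroblasts moved with these rises. All 14 macrophage and monocyte markers were called higher after infarction (median log2 fold change 2.42), and they summed to 422 to 523 CPM in sham hearts, 1350 to 3182 CPM after infarction and 909 to 1727 CPM after infarction with AAV9-Irx3. None of them was at 0 in any group. All 8 pan-leukocyte genes were also called higher, with sums of 79.3 to 130 CPM, 363 to 902 CPM and 328 to 645 CPM. Neutrophil markers summed to 2.81 to 7.85 CPM, 8.37 to 115 CPM and 6.84 to 44.9 CPM, with 2 of the 5 tested called higher and Mpo at 0 in sham hearts. T and NK cell markers summed to 0.0695 to 0.281 CPM, 1.44 to 7.08 CPM and 4.74 to 10.7 CPM, with Cd3d and Klrb1c at 0 in sham hearts and 5 of 5 called higher. Dendritic cell markers summed to 2.80 to 6.19 CPM, 4.60 to 10.1 CPM and 6.46 to 10.3 CPM, and 3 of 4 tested were called higher. Markers nearly absent from sham hearts entered the test through their reads in infarcted hearts, so a rise of these was favoured by the filter. Among them were all 5 T and NK cell markers (sham means of at most 0.0854 CPM) and the dendritic cell marker Xcr1 (0.133 CPM). Outside the immune lineages, all 5 fibroblast markers were called higher (median log2 fold change 2.23). They summed to 534 to 648 CPM in sham hearts, 7611 to 24432 CPM after infarction and 2033 to 14387 CPM with AAV9-Irx3. Cardiomyocyte markers went the other way, with 5 of 6 called lower and sums of 23516 to 52382 CPM after infarction. Of 6 endothelial markers 0 were called higher and 2 lower, and of 5 smooth muscle and pericyte markers also 0 and 2. Among all genes tested 26.3% were called higher and 22.4% lower after infarction.

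Each receptor was therefore also set against macrophages in its own library, as log2 CPM minus the mean log2 CPM of the 14 macrophage and monocyte markers. After infarction with AAV9-Ctrl this value differed from sham hearts by 0.10 on the log2 scale for Tlr2, by 0.28 for Tlr13 and by -0.23 for Tlr7, each less than the SD among the hearts. Tlr1 differed by 2.06, from -5.69 ± 0.45 (SD, n = 4) to -3.63 ± 0.51 (SD, n = 4). With 1, 4, 1 and 1 counts in sham hearts, its sham value, SD and difference depend on the prior count of 1 used for log2 CPM. Tlr4 differed by -2.32, from 0.80 ± 0.28 (SD, n = 4) to -1.52 ± 0.87 (SD, n = 4). Tlr5 (-1.69) and Tlr3 (-1.61) were also lower against the markers. The 2 groups did not overlap for these 4 members, and the two-sided exact permutation test gave p = 0.029 for each, the smallest that 4 against 4 allows. Tlr8 differed by -0.76 and Tlr9 by 0.58, each more than its SD in either group (exact permutation p = 0.057 each). Tlr6 differed by -0.36 (exact permutation p = 0.143), and the groups overlapped for Tlr8, Tlr9 and Tlr6. Over the 30 tests of 10 members in 3 comparisons, 0 passed the Benjamini-Hochberg adjustment of the exact permutation test (smallest adjusted p = 0.0857), while 4, 2 and 4 members reached p = 0.029 in the 3 comparisons. With that floor, 18 of the 30 tests would have to reach it for any to pass, so the adjusted result says little. Whether the number of macrophages accounts for the rises was not tested.

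**Figure D2:**
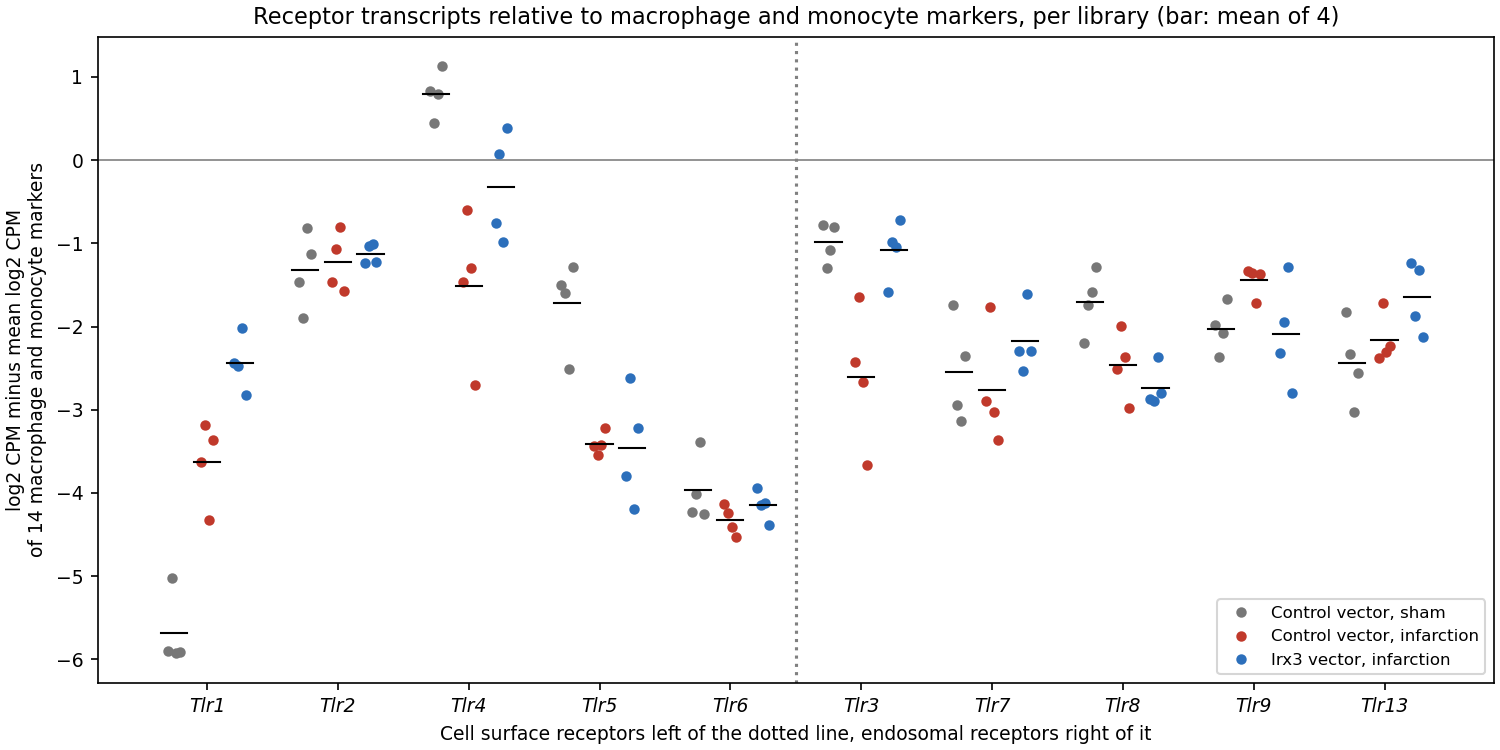
Log2 CPM of each receptor minus the mean log2 CPM of the 14 macrophage and monocyte markers in the same library; points are libraries, colours are groups and bars are means of 4. Tlr2 sits at nearly the same height in all groups, Tlr1 climbs from -5.69 in sham hearts, and Tlr4 drops from 0.80 to -1.52 after infarction with AAV9-Ctrl. The sham value of Tlr1 rests on few counts and depends on the prior count.

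The 2 infarcted groups were compared to ask what the Irx3 vector changes. Of the 10 members, 2 rose with AAV9-Irx3 and 0 fell. Among all genes tested 25.2% were called higher and 24.1% lower, so the members' count, 2 of 10, was near the background. Non-overlapping groups with higher values were found for 2 members, against 22.1% of all genes tested. The members' median log2 fold change was 0.28, and that of all genes tested was 0.00.

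Tlr4 and Tlr3 were the members that rose. Tlr4 lay at 35.2, 35.9, 31.2 and 41.4 CPM with AAV9-Irx3, and its lowest value exceeded the highest with AAV9-Ctrl, 25.8 CPM (log2 fold change 0.99, SE 0.19, edgeR adjusted p = 9.16e-04). Tlr3 lay at 19.8, 17.2, 29.8 and 19.2 CPM, above the highest value with AAV9-Ctrl, 12.4 CPM (log2 fold change 1.35, SE 0.22, edgeR adjusted p = 3.48e-04). The transcripts of both are poor in G and C, at 39.4% and 40.0%, the lowest values among the members. After a correction of each library for GC content neither passed the test. The corrected value of Tlr4 was -0.06 (SE 0.12, edgeR adjusted p = 0.735) and that of Tlr3 was 0.35 (SE 0.17, edgeR adjusted p = 0.137). The correction moved Tlr4, Tlr8, Tlr3 and Tlr7, all at 41.0% or less, by -1.06, -1.04, -1.01 and -0.92, and it moved Tlr9, at 56.2% the richest in G and C, by 0.60. With it 14.6% of all genes tested were called higher and 13.3% lower, and of the members 0 were higher and 1 lower. That member was Tlr8 (log2 fold change -1.38, SE 0.33, edgeR adjusted p = 0.00850). The share of mitochondrial reads also differed between these 2 groups, as given above, and its part in the result was not tested beyond removing those genes, which left the same 2 calls.

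The other 8 members did not pass the test without the correction, and all their groups overlapped. Tlr1 lay at 10.9, 6.08, 15.2 and 4.41 CPM with AAV9-Irx3, with replicates 1 and 3 above every heart with AAV9-Ctrl (log2 fold change 1.02, SE 0.43, edgeR adjusted p = 0.0655). It passed when replicate 4 of the AAV9-Ctrl infarcted group was left out (log2 fold change 1.53, edgeR adjusted p = 0.00739) or replicate 4 with AAV9-Irx3 (1.24, adjusted p = 0.0279). Its partner Tlr2 lay at 25.0, 16.6, 30.5 and 13.5 CPM (log2 fold change -0.05, SE 0.27) and Tlr6 at 3.80, 1.87, 3.49 and 1.44 CPM (0.08, SE 0.35). In all 3 lipopeptide receptors replicates 1 and 3 were the higher and replicates 2 and 4 the lower libraries. Tlr5 lay at 4.20, 5.51, 3.32 and 3.34 CPM (log2 fold change -0.32, SE 0.36), within the range seen with AAV9-Ctrl.

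Among the endosomal receptors, Tlr7 lay at 12.1, 5.84, 20.1 and 6.38 CPM with AAV9-Irx3 (log2 fold change 0.54, SE 0.39). Tlr13 lay at 25.0, 9.24, 24.7 and 7.14 CPM (0.49, SE 0.40) and Tlr8 at 8.05, 4.50, 11.9 and 4.48 CPM (-0.34, SE 0.30). Tlr9 lay at 11.8, 8.86, 25.1 and 4.48 CPM (-0.64, SE 0.41). Leaving out replicate 3 gave Tlr9 a log2 fold change of -1.21 with an edgeR adjusted p of 0.0170. The order of replicates was shared here too, with 1 and 3 above 2 and 4. The mean log2 CPM of the macrophage and monocyte markers was 5.89 and 5.95 in replicates 1 and 3 and 5.09 and 4.98 in replicates 2 and 4. Tlr4 and Tlr5 went against this order, Tlr4 being highest in replicate 4 and Tlr5 in replicate 2, and both being lowest in replicate 3. Of the 14 macrophage and monocyte markers, 2 were called higher and 6 lower with AAV9-Irx3, and 1 and 1 after the GC correction.

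Set against the macrophage and monocyte markers, Tlr1 was higher with AAV9-Irx3 by 1.19 on the log2 scale and Tlr3 by 1.52, each with an exact permutation p = 0.029 that did not pass the adjustment (adjusted p = 0.0857). After GC correction these differences were 0.60 and 0.33. Tlr4 differed by 1.20 (two-sided exact permutation p = 0.086) and by -0.06 after GC correction. Tlr2 differed by 0.10 (-0.03 after GC correction). Tlr6 and Tlr8 were the members at the smallest p after GC correction, where they differed by -0.36 and -1.45 (two-sided exact permutation p = 0.029 each, adjusted p = 0.0714), against 0.18 and -0.27 without it. Against the 8 pan-leukocyte genes, without GC correction, Tlr1 was higher by 1.05 (exact permutation p = 0.029). Tlr3 was higher by 1.38 against them (exact permutation p = 0.057), with an adjusted p of 0.143 for both.

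**Figure D3:**
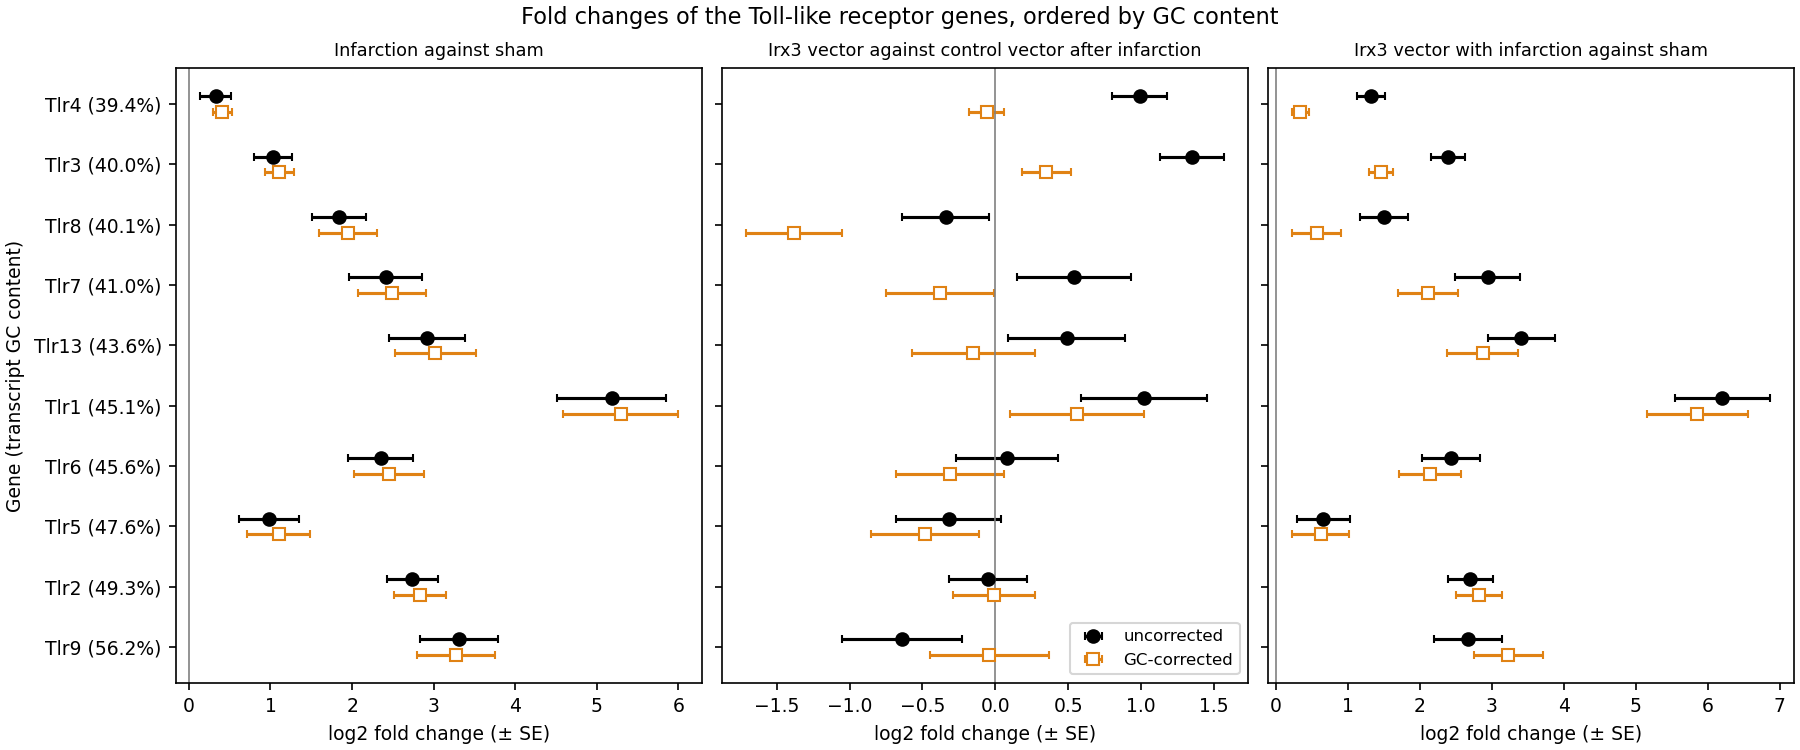
Log2 fold change (± SE, edgeR) of each receptor in the 3 comparisons, with genes ordered from low to high GC content of the transcript; filled circles are uncorrected values and open squares GC-corrected values. In the middle panel the uncorrected value of Tlr4, 0.99, falls to -0.06 after correction, whereas in the left panel the pairs nearly coincide.

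Irx3 vector with infarction was compared with sham surgery last. This comparison shares its libraries with both others, so its values are given beside them and support neither. Of the 10 members, 9 rose and 0 fell, against 35.2% and 27.7% of all genes tested, and all 10 had non-overlapping groups with higher values, against 33.2% of all genes tested. The median log2 fold change was 2.55, and 0.12 over all genes tested. Here too the filter favoured a rise of Tlr1 and Tlr6, which had few reads in sham hearts. Tlr1 stood at 6.20 (SE 0.66, edgeR adjusted p = 8.27e-06), Tlr13 at 3.41, Tlr7 at 2.94, Tlr2 at 2.70, Tlr9 at 2.67, Tlr6 at 2.43, Tlr3 at 2.39 and Tlr8 at 1.5. Tlr4 rose by 1.32 (SE 0.19, edgeR adjusted p = 7.15e-05) and by 0.34 after GC correction (edgeR adjusted p = 0.0308). Tlr5 did not pass (0.66, SE 0.37, edgeR adjusted p = 0.134). After GC correction 8 members were called higher and 0 lower, against 32.4% and 22.0% of all genes tested, and Tlr8 no longer passed (0.57, edgeR adjusted p = 0.177).

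Levels of different receptors were compared as CPM per kilobase of transcript. In sham hearts Tlr4 was the most abundant, at 3.53 ± 0.414 (SD, n = 4), and its lowest heart lay above the highest value of Tlr2, at 1.10 ± 0.266 (SD, n = 4). Tlr3 (0.933), Tlr8 (0.745), Tlr5 (0.678), Tlr9 (0.569), Tlr13 (0.381) and Tlr7 (0.371) followed, each overlapping the gene before it. Tlr6 (0.132) and Tlr1 (0.0379) were each below the gene before them without overlap. After infarction with AAV9-Ctrl the order was Tlr2 (7.35 ± 2.29), Tlr9 (5.65 ± 2.71), Tlr4 (4.42 ± 1.39), Tlr13 (2.91), Tlr8 (2.67), Tlr7 (1.97), Tlr3 (1.91), Tlr1 (1.49), Tlr5 (1.34) and Tlr6 (0.683), and every neighbouring pair overlapped. With AAV9-Irx3 it was Tlr4 (8.81 ± 1.04), Tlr2 (7.10 ± 2.58), Tlr3 (4.88 ± 1.29), Tlr13 (4.07), Tlr9 (3.62), Tlr1 (3.02), Tlr7 (2.85), Tlr8 (2.11), Tlr5 (1.07) and Tlr6 (0.721), again with overlap of every neighbouring pair. Errors are SD with n = 4. Per kilobase of coding sequence, 19 of the 30 places in these orders were kept, and with GC-corrected levels, an alternative chosen after seeing the data, 18. After GC correction the AAV9-Irx3 hearts were led by Tlr2 (7.34 ± 2.81), Tlr4 (5.41 ± 0.631) and Tlr9 (4.68 ± 3.45), the same 3 genes in the same order as the corrected AAV9-Ctrl infarcted hearts (7.41 ± 2.42, 5.65 ± 0.630 and 4.80 ± 1.90), and Tlr3 (3.07 ± 0.718) stood below them.

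The 10 transcripts summed to 8.47 ± 0.744 CPM per kilobase under sham surgery, to 30.4 ± 7.68 in infarcted hearts with AAV9-Ctrl and to 38.2 ± 11.9 in those with AAV9-Irx3 (SD, n = 4 each). Sham hearts lay at 7.76 to 9.50 and infarcted hearts with AAV9-Ctrl at 22.2 to 40.5, and the AAV9-Irx3 hearts, at 27.7 to 53.3, overlapped the latter. Of this sum, Tlr4 made up 41.6% ± 1.65 under sham surgery, 15.2% ± 5.08 in infarcted hearts with AAV9-Ctrl and 25.3% ± 9.85 with AAV9-Irx3 (SD, n = 4 each). Endosomal receptors made up 35.4% ± 2.64, 49.4% ± 4.27 and 44.0% ± 7.62 (SD, n = 4 each). Their share did not overlap between sham hearts (32.2% to 38.1%) and infarcted hearts with AAV9-Ctrl (43.1% to 52.4%), and the AAV9-Irx3 hearts (37.3% to 53.8%) overlapped both. After GC correction the sums were 9.52 ± 0.734, 33.6 ± 9.36 and 31.0 ± 11.0, so that the higher sum with AAV9-Irx3 turned to a lower one. The corrected share of Tlr4 was 44.8% ± 2.10, 17.7% ± 4.33 and 19.7% ± 8.53, and that of the endosomal receptors 35.4% ± 2.66, 49.2% ± 3.82 and 43.4% ± 7.41 (SD, n = 4 each). These sums and shares were not tested.

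**Figure D4:**
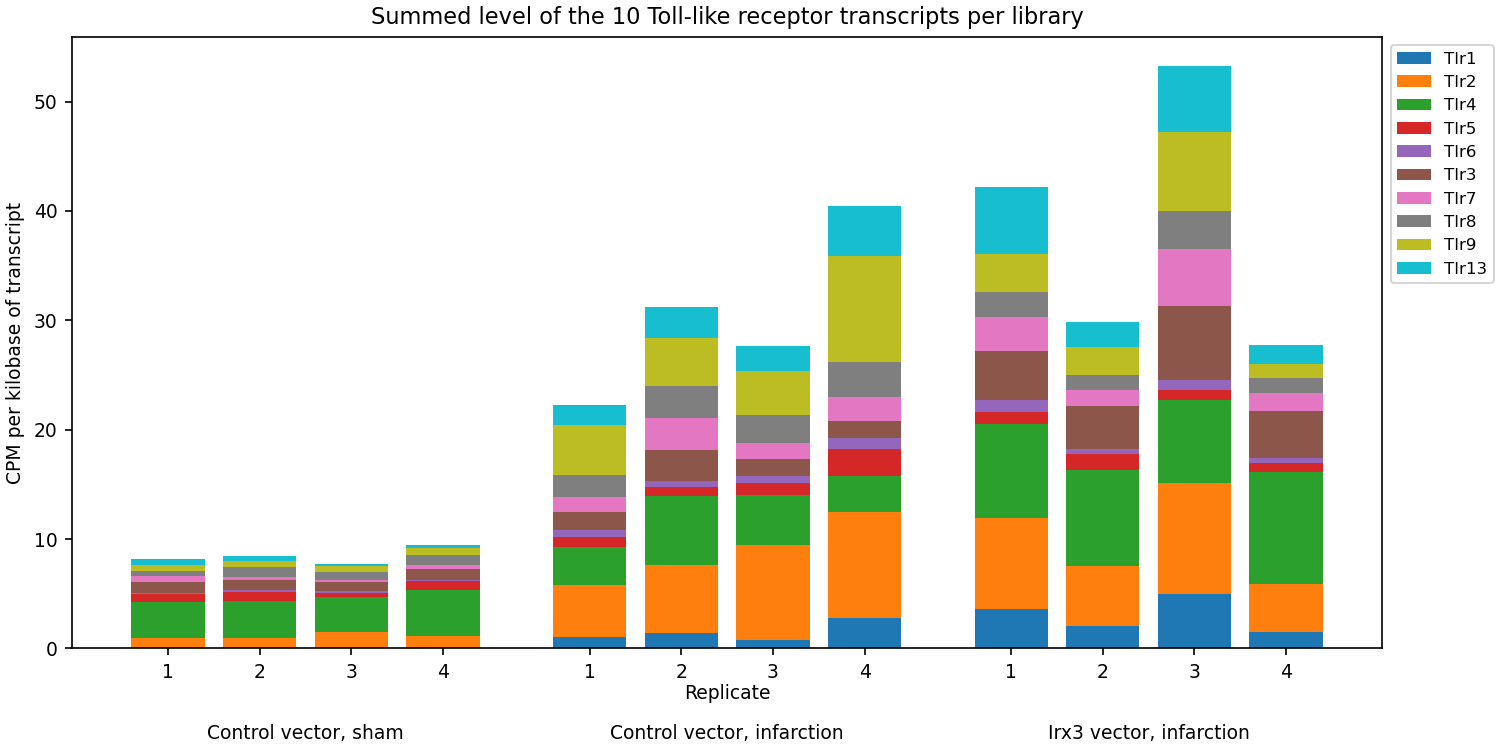
Stacked level of the 10 receptor transcripts per library, in CPM per kilobase of transcript on a linear axis from 0; each bar is a library and each colour a receptor. Sham bars reach 7.76 to 9.50 with Tlr4 as the largest piece, and infarcted bars reach 22.2 to 53.3.

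Genes with the pattern most like each member were found by the root mean square difference of centred log2 CPM over the 12 libraries, among 12440 genes. All comparisons share the same 12 libraries, and the distances are descriptions. Tlr2 lay nearest to Adgre1, the gene of the macrophage marker F4/80, and to Cxcl16 (0.25 each). Tlr6 lay nearest to Slc15a3 (0.19) and Adgre1 (0.21). Tlr4 had the closest neighbours of any member, Cbx5 (0.15) and Srsf3 (0.16), which encode a heterochromatin protein and a splicing factor. Tlr3 lay nearest to Samd9l and Ccnl1 (0.22 each), and Tlr13 to Cd84 (0.28) and Fyb (0.31). Tlr5 lay nearest to Gm5454 and Pf4 (0.31 each), and Tlr7 to Ifi204 (0.33) and Marchf1 (0.36). Ahnak2 lay at 0.30 from Tlr9, Dzip1 at 0.27 from Tlr8, and Ms4a7 at 0.64 from Tlr1, which had few counts in sham hearts.

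The other genes of the pathway are given by list, and their counts are read against all genes tested, of which 26.3% were called higher and 22.4% lower after infarction, and 25.2% and 24.1% with AAV9-Irx3 (14.6% and 13.3% after GC correction). The partners that present ligands or hold receptors at the surface moved unevenly. After infarction 4 of 6 co-receptors and ligand carriers rose and 1 fell. Cd180 and Ly86, which form a complex related to that of Tlr4 and Ly96, rose by 5.30 and 3.56 on the log2 scale (SE 0.69 and 0.38). Cd180 averaged 0.0488 CPM in sham hearts and entered the test through infarcted hearts, so the filter favoured its rise. Cd14, which passes lipopolysaccharide to Tlr4, rose from 16.7 ± 6.94 CPM to 56.4 ± 24.8 CPM (SD, n = 4 each; log2 fold change 1.75). Ly96, the obligate partner of Tlr4 in binding lipopolysaccharide, stood at 0.736 ± 0.379 CPM in sham hearts and 0.799 ± 0.0577 CPM after infarction (SD, n = 4 each; 0.12, edgeR adjusted p = 0.810). The member that fell was Cd36, a fatty acid transporter and co-receptor of Tlr2, at -1.08, named after its values were seen. With AAV9-Irx3 3 rose and 2 fell. Cd180 rose further by 2.43 (edgeR adjusted p = 3.29e-04), and by 2.10 after GC correction (edgeR adjusted p = 0.00262). Cd14 fell by 1.38 (edgeR adjusted p = 0.00893; -1.05 and 0.0538 after GC correction) and Ly96 rose by 1.19 (edgeR adjusted p = 0.0138; 0.29 and 0.580 after GC correction).

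Of 7 genes for folding and trafficking of the receptors, 5 rose and 0 fell after infarction. Unc93b1, which carries the endosomal receptors, rose from 27.1 ± 4.24 CPM to 137 ± 53.9 CPM (SD, n = 4 each; log2 fold change 2.33, SE 0.31). Slc15a3, a lysosomal transporter, rose by 2.05 and Cnpy4 by 1.29. With AAV9-Irx3 1 rose and 4 fell, and after GC correction 1 rose and 0 fell. The gene that rose in both fits was Hsp90b1 (gp96), the chaperone of most of the receptors, at 1.5 (edgeR adjusted p = 5.89e-05) and 0.73 after correction (edgeR adjusted p = 0.00172). Unc93b1 fell by 0.84 (edgeR adjusted p = 0.0316) and stood at -0.19 after correction (edgeR adjusted p = 0.642).

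Downstream of the receptors, 3 of 5 adaptors tested rose after infarction and 0 fell. Pik3ap1 (BCAP) rose by 3.71, Ticam2 by 1.53 and Myd88 by 0.78 (SE 0.19, edgeR adjusted p = 0.00433). Ticam1 (-0.25) and Tirap (0.45) did not pass. With AAV9-Irx3 Tirap rose by 0.67 and Ticam1 fell by 0.56, and no adaptor passed after GC correction. Of 18 kinases and ubiquitin ligases 6 rose and 2 fell after infarction, shares near those of all genes tested, with a list median of -0.10; among those that rose were Ikbke (3.02), Btk (2.59) and Ripk1 (0.89). With AAV9-Irx3 6 rose and 4 fell (3 and 2 after GC correction), again near the shares of all genes tested, and Tab3 (1.56, 0.72 after correction) and Chuk (1.33, 0.48 after correction) passed in both fits.

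Transcription factors of the pathway rose in 6 of 9 cases after infarction and fell in 0. Irf7, which acts below Tlr7 and Tlr9 on interferon genes, rose from 18.6 ± 3.82 CPM to 310 ± 81.4 CPM (SD, n = 4 each; log2 fold change 4.05, SE 0.30, edgeR adjusted p = 8.66e-06). Irf5 rose by 2.54 and Irf8 by 2.01. With AAV9-Irx3 1 rose and 5 fell (1 and 1 after GC correction). Rel rose by 1.53 (0.79 after correction, edgeR adjusted p = 0.00764), while Irf7 fell by 0.85 (edgeR adjusted p = 0.0183; -0.32 and 0.352 after correction). The factor lower in both fits was Nfkb1, named after its values were seen. It stood at -0.64 (edgeR adjusted p = 0.00660) and at -1.11 after correction (edgeR adjusted p = 0.00207).

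Negative regulators rose in 7 of 14 cases after infarction and fell in 2. Tnfaip3 (A20) rose by 1.68, Socs1 by 2.22, Nfkbie by 2.23 and Irak3 by 1.10. With AAV9-Irx3 2 rose and 4 fell (2 and 1 after GC correction), near the shares of all genes tested. Nfkbia, the inhibitor of NF-kB and itself one of its targets, fell from 118 ± 29.8 CPM to 30.7 ± 4.28 CPM (SD, n = 4 each; log2 fold change -1.95, edgeR adjusted p = 1.20e-05). After GC correction it still fell by 1.60 (edgeR adjusted p = 3.39e-05). Tnfaip3 stood at 0.25 (edgeR adjusted p = 0.515).

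Genes for endogenous ligands rose in 5 of 9 cases after infarction and fell in 1. Bgn (biglycan), a matrix proteoglycan sensed by Tlr2 and Tlr4, rose by 4.03, Fn1 by 4.83 and Vcan by 2.36. With AAV9-Irx3 2 rose and 1 fell (2 and 0 after GC correction). Hmgb1 rose by 1.51 (0.48 after correction, edgeR adjusted p = 0.0147) and Hspd1 by 1.24 (1.04 after correction, edgeR adjusted p = 0.0173). Bgn fell by 1.23 (edgeR adjusted p = 0.0162; -1.01 and 0.0711 after correction). Of 18 listed response genes, which receptor signalling is known to induce, 11 had enough reads to be tested. Of these, 10 rose and 0 fell after infarction, among them Cxcl10 (4.69), Ccl5 (4.87) and Ptgs2 (3.23). Several were nearly absent from sham hearts, such as Cxcl10 (0.148 CPM), Il1b (0.202 CPM) and Tnf (0.0942 CPM). Such genes entered the test through their reads in infarcted hearts, so a rise of these was favoured by the filter. With AAV9-Irx3 2 rose and 1 fell. Ccl2 rose by 2.10 (1.51 after correction, edgeR adjusted p = 0.0382), Cxcl10 rose by 1.21 and Ccl5 fell by 2.21, and the last 2 did not pass after correction (edgeR adjusted p = 0.0952 and 0.0597).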

How the data were processed

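Raw read counts per gene, as deposited by the authors, were the only values used. Reads were trimmed with fastp and the build was GRCm39 (mm39), per the submitters' processing notes. Of the aligner, the counting tool and the strand setting, none is given in the sources used here, so reads of overlapping antisense genes cannot be told apart. The labels give 1 batch. No 2 libraries agreed within counting noise (smallest chi-square per degree of freedom 7.31 over 66 pairs).

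Counts were tested with edgeR 4.0.16 (R 4.3.3): TMM factors, filterByExpr by group, robust quasi-likelihood fit with 1 term per group over 12 libraries, 9 residual degrees of freedom, Benjamini-Hochberg adjustment over 15742 genes, called under 0.05. A gene with few reads in sham hearts entered the test through its reads in infarcted hearts, so the filter favoured a rise of such genes. SE is the size of the log2 fold change over the square root of F. Log2 CPM used a prior count of 1. The GC correction fitted a spline with 6 degrees of freedom per library to log2 CPM on transcript GC content (GENCODE M21, 96.5% of genes matched) and entered it as an offset. Transcript lengths are those of the longest GENCODE M21 transcript, and coordinates are GRCm38.p6. Counts per member and library ran from 1 to 749. Precision is limited by these counts and by the spread between libraries, which exceeded counting noise. The members, lists and alternatives were chosen with earlier results of these data known. Named genes are all members, the 3 of each list with the smallest p in a comparison, direct partners (Myd88, Ticam1, Ly96, Cd14, Unc93b1, Irf7, Tirap, Irak3, Tnfaip3, Cd180, Ly86) and the 2 nearest genes by pattern, of which some are not reported here. On simulated data of the infarction comparison (15472 genes), 87.8% of 4-fold and 45.4% of 2-fold changes were recovered. For the vector comparison (15462 genes) these were 84.0% and 50.0%. In each simulation 100 genes were changed per fold size, a far smaller share than was called in the data, and no GC bias was added. The recovered shares therefore do not give the power of the reported tests.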

Additional observations from a re-analysis of the deposited data

Results flagged for a closer look

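In 5 of the 30 groups of 4 libraries (10 members in 3 groups), 1 library stood apart from the other 3 by Dixon's test on log2 CPM, which chance does in about 1 of 20 groups. In sham hearts, Tlr1 was at -1.69 in replicate 2 against -2.98 to -2.96 in the others, a difference of 4 counts against 1. Tlr4 was at 4.08 in sham replicate 4 against 3.74 to 3.78. In infarcted hearts with AAV9-Ctrl, replicate 4 was high for Tlr6 (1.92 against 1.05 to 1.18) and for Tlr9 (5.08 against 3.80 to 3.98). The mean log2 CPM of the macrophage and monocyte markers was also highest in this library, at 6.45 against 5.29 to 5.52. Set against those markers, replicate 4 was at -4.53 for Tlr6 (others -4.41 to -4.13) and at -1.37 for Tlr9 (others -1.72 to -1.33). Tlr3 was high in replicate 2 of that group (3.64 against 2.78 to 2.88).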

How the results depend on the processing

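For infarction against sham, 8 to 10 members were called higher under every setting, and each library left out in turn gave 8 to 9; the number moved with Tlr5 and, under GC correction, Tlr4. With the replicate block the counts of calls were 8, 2 and 9 in the 3 comparisons, Tlr5 being the call lost after infarction (edgeR adjusted p = 0.0507). Correlations of same-numbered libraries, after removal of group means, were -0.42 to 0.10. They do not settle whether replicate numbers pair the mice. With AAV9-Irx3 against AAV9-Ctrl the count was 2 to 3 on leaving out libraries, 4 without replicate 4 of both infarcted groups, and 1 under GC correction, with the replicate block and GC correction, and with GC correction without AAV9-Irx3 replicate 4. With GC correction and without replicate 4 of both infarcted groups it was 2, Tlr1 higher (1.38, adjusted p = 0.0103) and Tlr8 lower (-0.98, adjusted p = 0.0289), neither of them among the 2 reported calls. For AAV9-Irx3 with infarction against sham it was 7 to 10. The exact permutation tests against macrophage markers cannot show stability, given their smallest p. Coding length kept 19 and GC correction 18 of 30 places in the order of levels.

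In the vector comparison 30 values changed sign; apart from Tlr4 none was called in the reported fit. Under GC correction they were Tlr4 -0.06, Tlr6 -0.31, Tlr7 -0.38 and Tlr13 -0.15, and with the replicate block added -0.06, -0.34, -0.47 and -0.21. Under GC correction without AAV9-Irx3 replicate 4 they were Tlr2 0.16, Tlr4 -0.10, Tlr6 -0.10, Tlr7 -0.18 and Tlr9 0.24. Without replicate 4 of both infarcted groups they were Tlr2 0.28, Tlr5 0.23 and Tlr9 0.02, and with GC correction Tlr2 0.34, Tlr4 -0.14, Tlr5 0.13, Tlr7 -0.03 and Tlr9 0.55. Upper-quartile factors gave Tlr2 0.00. Leaving out each library in turn gave -0.26 to 0.13 for Tlr2, -0.49 to 0.16 for Tlr5 and -0.14 to 0.35 for Tlr6. The cause was not tested. Tlr1 and Tlr6 rest on 7 and 29 counts over the sham group, which limits their fold changes.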

Other observations

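The remaining receptors of the mouse family, Tlr11 and Tlr12, were found at few counts. Tlr11 had 0 counts in all 4 sham hearts and 6, 6, 13 and 5 counts after infarction, which is 8.14-fold higher when the sham group is set to a floor of 3 counts in all, with a lower 95% counting limit of 6.22-fold. Tlr12 had 2 counts over the sham group and 53 after infarction, a ratio of 21.6 with a 95% counting interval of 5.68 to 183. The counting limits leave out the spread between mice. Tlr11 and Tlr12 were both called higher after infarction by the edgeR test (adjusted p = 0.00152 and 0.00424). Both entered the test through their reads in infarcted hearts, so the filter favoured a rise of these against sham. Neither passed the edgeR test with AAV9-Irx3 against AAV9-Ctrl (adjusted p = 0.112 and 0.874).

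Other innate sensors rose alongside after infarction, with 10 of 13 tested called higher and 0 lower. Clec7a and Clec4e averaged 0.270 and 0.0996 CPM in sham hearts, so the filter favoured a rise of these against sham. The cytosolic RNA sensors Ddx58 (RIG-I) and Ifih1 (MDA5) rose by 2.19 and 2.09 on the log2 scale, from 12.1 ± 1.04 to 55.4 ± 2.29 CPM and from 8.09 ± 0.821 to 34.6 ± 0.841 CPM (SD, n = 4 each). Zbp1, a sensor of Z-form nucleic acids, rose by 4.67 (edgeR adjusted p = 9.09e-05). With AAV9-Irx3 2 of 13 rose and 1 fell, and after GC correction 2 rose and 0 fell. Clec7a (dectin-1) rose by 2.71 (edgeR adjusted p = 1.52e-04; 1.76 and 0.00627 after correction) and Cgas, the cytosolic DNA sensor, by 1.72 (edgeR adjusted p = 0.00261; 1.41 and 0.0148 after correction).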
